A study of Danio rerio with 6 samples.

Results

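The genes described here encode the enzymes that build and sulfate glycans, the sugar chains of glycoproteins, glycolipids and proteoglycans. A gene was a member if its symbol began with the stem of a family of glycosyltransferases, carbohydrate sulfotransferases or their companion enzymes (for example b3g, b4g, st3gal, galnt, chst, hs3st, ext, mgat or alg), and 25 of the 2471 analysed genes did. The fringe genes, which act on Notch, fall outside the name rule. RNA came from cells sorted as endothelial from the trunks of zebrafish embryos 22 hours post fertilization (hpf). All embryos had the genotype NFKB:d2eGFP x kdrl:mCherry, so both groups carried a destabilized green reporter of NF-kB activity and a red reporter driven by the promoter of the VEGF receptor gene kdrl. Cells positive for kdrl were sorted into NFKB+ and NFKB- cells, with about 7000 cells per sample and 3 libraries per sort, and nothing was given or deleted to change NF-kB itself. The sorts are therefore compared as cell populations that differ in reporter fluorescence. The wider question is how NF-kB activity in endothelium goes with the specification of blood stem and progenitor cells, which the values here do not measure.

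Glycan synthesis is an assembly line in the endoplasmic reticulum and the Golgi, where each enzyme adds or modifies a particular sugar. N-glycans are built on a lipid carrier, moved to asparagines and then trimmed and branched. Mucin-type O-glycans grow from serine or threonine, and both kinds of chain end in galactose, sialic acid and fucose. Glycosaminoglycans such as heparan sulfate and dermatan sulfate are long sulfated chains on proteoglycans that bind growth factors at the endothelial surface. On leukocytes, sialylated and fucosylated chain ends serve as ligands of the selectins of the vessel wall.

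Every gene in the deposited table had already passed 2-fold and an adjusted p of 0.01 in the authors' comparison of these libraries. A member could therefore be present only if it differed between the sorts, and 100% of the 2471 genes passed an adjusted p of 0.05 in a refit with limma. The values below describe differences that were selected, and the limma p-values are not independent evidence of them. The reference annotation holds 201 symbols that fit the name rule, 4 of them for genes of other function, and 176 of the 201 have no row in the table. For those, neither a difference nor its lack can be read here. Levels are log2(normalized reads + 1), differences are NFKB+ minus NFKB- on that scale, and folds are 2 to the power of a difference. Other scalings of the libraries move the median difference of all genes by 0.49, -0.11 or -0.88, so each difference holds under the deposited scaling. Levels of different genes were not compared as amounts of RNA, because reads were not divided by transcript length.

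Of the 25 members, 14 were higher and 11 lower in NFKB+ cells, or 56.0% higher, against 54.5% higher and 45.5% lower over all 2471 genes. The share was thus close to that of the table. The median size of the difference was 1.63 for the higher and 1.62 for the lower members, against 1.48 and 1.52 for all higher and lower genes. At 4-fold or more, 2 members were higher and 4 lower, with 9.43% and 14.8% of all genes on those sides. The libraries of the sorts did not overlap for any of the 25 members, nor for 99.6% of all genes. The lower members were read less often, with a median of 234 normalized reads against 989 for the higher members. Over all lower and higher genes the medians were 911 and 1072, also without division by transcript length.

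**Figure D1:**
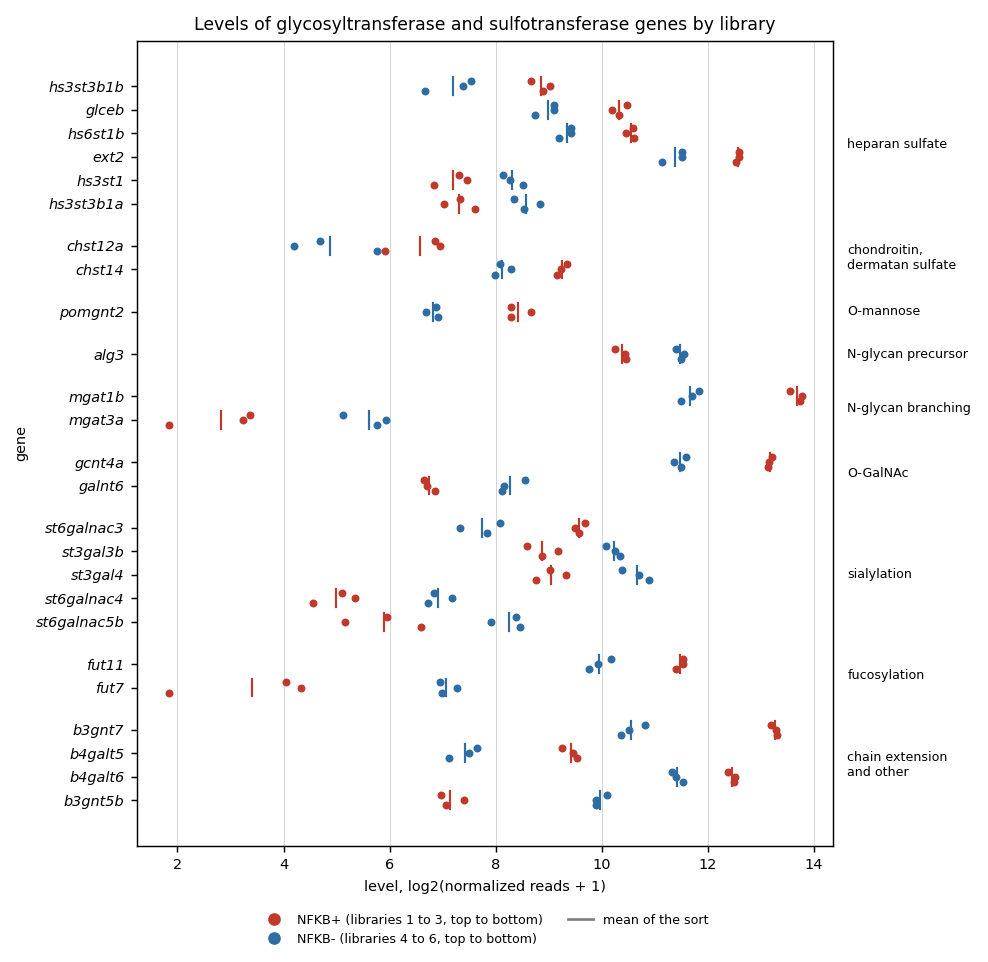
Level of each of the 25 genes in each library, as log2(normalized reads + 1), by glycan class. Red points are the 3 NFKB+ libraries, blue points the 3 NFKB- libraries and bars the means of the sorts. The sorts are apart for each gene, by 0.16 for chst12a and by 2.62 for fut7, and the points spread most for fut7, mgat3a, chst12a and st6galnac5b.

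The sorts also differed in markers of cell types. Transcripts of kdrl were present in both, at 15.04 ± 0.041 (SD, n = 3) in NFKB+ and 13.84 ± 0.26 in NFKB- libraries, and globin genes took 7.34% ± 0.588 of the table's reads in NFKB+ against 39.1% ± 2.90 in NFKB- libraries. Of 21 listed endothelial markers 16 had a row and all 16 were higher in NFKB+ cells. Their summed level was 595629 to 617661 normalized reads against 165475 to 223626. Of 14 listed myeloid markers 12 had a row and all 12 were lower, with sums of 12214 to 14916 against 149785 to 183218. Of 19 erythroid markers 11 had a row and all 11 were lower, with a median difference of -2.76 and sums of 675544 to 819151 against 4795446 to 6668422. The 4 of 12 epidermal markers and 2 of 7 neural markers in the table were higher, at medians of 1.95 and 1.05, and none of 8 muscle markers had a row. No endothelial, myeloid or erythroid marker in the table was at 0, and markers without a row were not analysed here. The part of these shifts in the differences below was not tested, and in bulk samples fewer cells of a type and less RNA per cell cannot be told apart.

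Heparan sulfate enzymes made up 6 of the 25 members, from 28 annotated symbols, with a median difference of 1.199. Of these 4 were higher and 2 lower, with 54.5% higher and 45.5% lower over all genes. The polymerase, the epimerase and a 6-O-sulfotransferase were higher in NFKB+ cells, while 3-O-sulfotransferases went both ways. The gene ext2 (NCBI Gene 493780) encodes a subunit of the polymerase that lengthens the chain, and it was 2.28-fold higher, at 12.57 ± 0.039 (SD, n = 3) in NFKB+ and 11.38 ± 0.21 in NFKB- libraries. The gene glceb (Gene 100007670), for the epimerase that turns glucuronic into iduronic acid in the chain, was 2.54-fold higher, at 10.33 ± 0.14 against 8.99 ± 0.21. The gene hs6st1b (Gene 791107), for an enzyme that adds sulfate at position 6 of glucosamine, was 2.31-fold higher, at 10.55 ± 0.081 against 9.34 ± 0.13. These 3 genes had close values in the libraries of each sort, and the lowest NFKB- value of each was that of library 6.

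The 3-O-sulfotransferases add the last and rarest sulfate of heparan sulfate, and in mammals different members of the family create binding sites for different proteins. The gene hs3st3b1b (Gene 558084) was read at levels of 8.66, 9.03 and 8.89 in NFKB+ libraries 1 to 3 and at 7.54, 7.38 and 6.68 in NFKB- libraries 4 to 6. All NFKB+ libraries lay above all NFKB- libraries, and library 6 was the lowest. The difference was 1.66 ± 0.25 (SE), or 3.16-fold (limma adjusted p = 1.39e-05). Its duplicate hs3st3b1a (Gene 767708) had levels of 7.32, 7.03 and 7.61 in NFKB+ and 8.34, 8.83 and 8.53 in NFKB- libraries. Here the order of the sorts was the opposite, with a difference of -1.25 ± 0.24 (SE), or 2.38-fold lower in NFKB+ cells. The gene hs3st1 (Gene 565201), whose mammalian counterpart makes the binding site of antithrombin, was also lower, by 2.16-fold, at 7.20 ± 0.33 against 8.31 ± 0.19.

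Both chondroitin and dermatan sulfate members, of 14 annotated symbols, were higher in NFKB+ cells, as were 54.5% of all genes. Both members encode sulfotransferases that act at position 4 of N-acetylgalactosamine. The gene chst14 (Gene 404732), for the dermatan sulfate enzyme, was 2.19-fold higher, at 9.25 ± 0.088 against 8.12 ± 0.15. The gene chst12a (Gene 407076), for a chondroitin sulfate enzyme, was among the least read members. The NFKB+ libraries held 111, 103 and 93 reads of it, and NFKB- libraries 22, 18 and 49. Its levels were 6.86, 6.96 and 5.92 in NFKB+ libraries 1 to 3 and 4.69, 4.19 and 5.77 in NFKB- libraries 4 to 6. The lowest NFKB+ library, library 3, was only 0.16 above the highest NFKB- library, library 6, the narrowest gap of any member. The difference was 1.70 ± 0.46 (SE), or 3.25-fold, and its limma adjusted p of 0.00242 was the highest of the 25. Its SDs of 0.57 and 0.81 were larger than the 0.14 and 0.29 that counting alone would give at these reads. With libraries scaled by median ratios the calls of chst14 and chst12a ended (limma adjusted p = 0.192 and 0.128). Those ratios were taken over the selected genes alone, so the ended calls cannot decide between the scalings.

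The O-mannose pathway of dystroglycan had 1 member in the table, of 7 annotated symbols. The gene pomgnt2 (Gene 497644) encodes an enzyme that adds N-acetylglucosamine to protein-bound mannose, a step towards the glycan by which dystroglycan binds the matrix. It was read at levels of 8.29, 8.67 and 8.30 in NFKB+ and 6.87, 6.68 and 6.92 in NFKB- libraries, which makes it 3.02-fold higher in NFKB+ cells. Library 2 was the highest in NFKB+ and library 5 the lowest in NFKB-.

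Among N-glycan enzymes, an early assembly gene was lower in NFKB+ cells, and the 2 branching genes differed in opposite directions. The gene alg3 (Gene 553725) encodes a mannosyltransferase that helps to build the lipid-bound precursor. Its levels were 10.26, 10.43 and 10.46 in NFKB+ and 11.40, 11.55 and 11.50 in NFKB- libraries. The libraries of each sort were close together, and alg3 was 2.14-fold lower in NFKB+ cells. It was the only one of 12 annotated alg symbols in the table. The gene mgat1b (Gene 558524), for the enzyme that opens the way to hybrid and complex N-glycans, had levels of 13.56, 13.77 and 13.74 in NFKB+ and 11.83, 11.70 and 11.49 in NFKB- libraries. Its sorts were 1.73 apart at the closest, and its difference was 2.02 ± 0.11 (SE), or 4.05-fold higher in NFKB+ cells (limma adjusted p = 3.78e-10).

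The gene mgat3a (Gene 553676), for the enzyme that adds the bisecting N-acetylglucosamine, was the least read member, at a mean of 28.0 normalized reads. NFKB+ libraries held 9, 7 and 4 reads of it, and NFKB- libraries 30, 63 and 49. Its levels were 3.37, 3.23 and 1.83 in NFKB+ and 5.12, 5.94 and 5.77 in NFKB- libraries, with library 3 the lowest. The difference was -2.80 ± 0.59 (SE), or 6.95-fold lower in NFKB+ cells, and -2.27 in the authors' deposited table. At such reads counting alone gives an SD of 0.59 in the NFKB+ libraries, where the SD was 0.85.

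Mucin-type O-glycan genes gave 2 members from 30 annotated symbols, again in opposite directions. The gene gcnt4a (Gene 324510), for an enzyme that starts the core 2 branch, had levels of 13.22, 13.16 and 13.14 in NFKB+ and 11.59, 11.37 and 11.49 in NFKB- libraries. It was 3.23-fold higher in NFKB+ cells, with a narrow spread in both sorts (limma adjusted p = 7.85e-10). The gene galnt6 (Gene 406477), for an enzyme that adds the initial N-acetylgalactosamine, had levels of 6.65, 6.70 and 6.86 in NFKB+ and 8.56, 8.17 and 8.12 in NFKB- libraries. It was 2.92-fold lower in NFKB+ cells, and library 4 was the highest.

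Sialyltransferases were 5 of the members, from 31 annotated symbols. Of these 4 were lower in NFKB+ cells and 1 was higher, with 45.5% lower and 54.5% higher over all genes. The 5 sialyltransferase genes had a median difference of -1.62. The lower genes act on galactose as well as on N-acetylgalactosamine. The gene st3gal4 (Gene 504044), which in mice takes part in making selectin ligands, had levels of 9.02, 9.32 and 8.77 in NFKB+ and 10.38, 10.71 and 10.89 in NFKB- libraries. It was 3.07-fold lower in NFKB+ cells, and its sorts were 1.05 apart at the closest. The related gene st3gal3b (Gene 407659) was 2.55-fold lower, at 8.88 ± 0.29 against 10.23 ± 0.14.

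The table also held 3 genes of the st6galnac family, which link sialic acid to N-acetylgalactosamine. The gene st6galnac5b (Gene 407716), whose mammalian counterpart acts on gangliosides, had levels of 5.96, 5.16 and 6.59 in NFKB+ and 8.38, 7.90 and 8.45 in NFKB- libraries. The NFKB+ libraries spread over 1.43 on the log2 scale, from 29 reads in library 2 to 149 in library 3, and all lay below the NFKB- libraries. The difference was -2.34 ± 0.35 (SE), or 5.07-fold lower. The gene st6galnac4 (Gene 751653) had levels of 5.10, 5.34 and 4.55 in NFKB+ and 6.84, 7.18 and 6.72 in NFKB- libraries, which is 3.78-fold lower. On the other side, st6galnac3 (Gene 322609) had levels of 9.68, 9.49 and 9.57 in NFKB+ and 8.09, 7.32 and 7.84 in NFKB- libraries. It was 3.56-fold higher in NFKB+ cells (limma adjusted p = 7.39e-07), with the wider spread in NFKB- libraries.

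The 2 fucosyltransferase members, from 13 annotated symbols, also lay on opposite sides. The gene fut7 (Gene 562250), whose human and mouse counterparts complete the sialyl Lewis x group of leukocyte selectin ligands, had the largest difference of the 25. NFKB+ libraries held 15, 16 and 4 reads of it, and NFKB- libraries 109, 160 and 116. Its levels were 4.05, 4.33 and 1.83 in NFKB+ and 6.95, 7.27 and 6.99 in NFKB- libraries, so the NFKB- libraries were close together and library 3 stood below the rest. The difference was -3.67 ± 0.58 (SE), or 12.7-fold lower in NFKB+ cells, and it ranked 43 among the 1124 lower genes. Without NFKB+ library 3 it was -2.88, and in the authors' deposited table it was -2.99. The gene fut11 (Gene 568888), for a fucosyltransferase of the early secretory pathway, had levels of 11.53, 11.53 and 11.40 in NFKB+ and 10.17, 9.93 and 9.76 in NFKB- libraries. It was 2.88-fold higher in NFKB+ cells.

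The largest excess in NFKB+ cells was in the class of chain extension and other b3g or b4g genes. The gene b3gnt7 (Gene 286748) encodes an N-acetylglucosaminyltransferase that extends chains of galactose and N-acetylglucosamine, and in humans it takes part in making keratan sulfate. Its levels were 13.20, 13.28 and 13.31 in NFKB+ libraries 1 to 3 and 10.81, 10.51 and 10.36 in NFKB- libraries 4 to 6. The sorts were 2.39 apart at the closest, the widest gap of any higher member. The difference was 2.70 ± 0.12 (SE) and ranked 62 among the 1347 higher genes (limma adjusted p = 6.36e-11). Its relative b3gnt5b (Gene 791470), whose mammalian counterpart starts the lacto series of glycolipids, had levels of 6.97, 7.41 and 7.06 in NFKB+ and 10.11, 9.89 and 9.89 in NFKB- libraries. It was 7.04-fold lower in NFKB+ cells, with a difference of -2.81 ± 0.20 (SE) and close values within each sort (limma adjusted p = 3.44e-09).

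The galactosyltransferase genes b4galt5 and b4galt6, whose mammalian counterparts make lactosylceramide, the stem of most glycolipids, were both higher in NFKB+ cells. For b4galt5 (Gene 724080) the levels were 9.26, 9.46 and 9.53 in NFKB+ and 7.64, 7.50 and 7.12 in NFKB- libraries, a 3.99-fold difference. For b4galt6 (Gene 393912) they were 12.46 ± 0.063 against 11.42 ± 0.11, a 2.06-fold difference, and 2.05-fold in the authors' deposited table. This was the member nearest to the authors' 2-fold limit, and its call ended with median-ratio scaling (limma adjusted p = 0.201). The class of chain extension and other genes held 3 higher and 1 lower member from 37 annotated symbols. Over all genes 54.5% were higher and 45.5% lower.

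**Figure D2:**
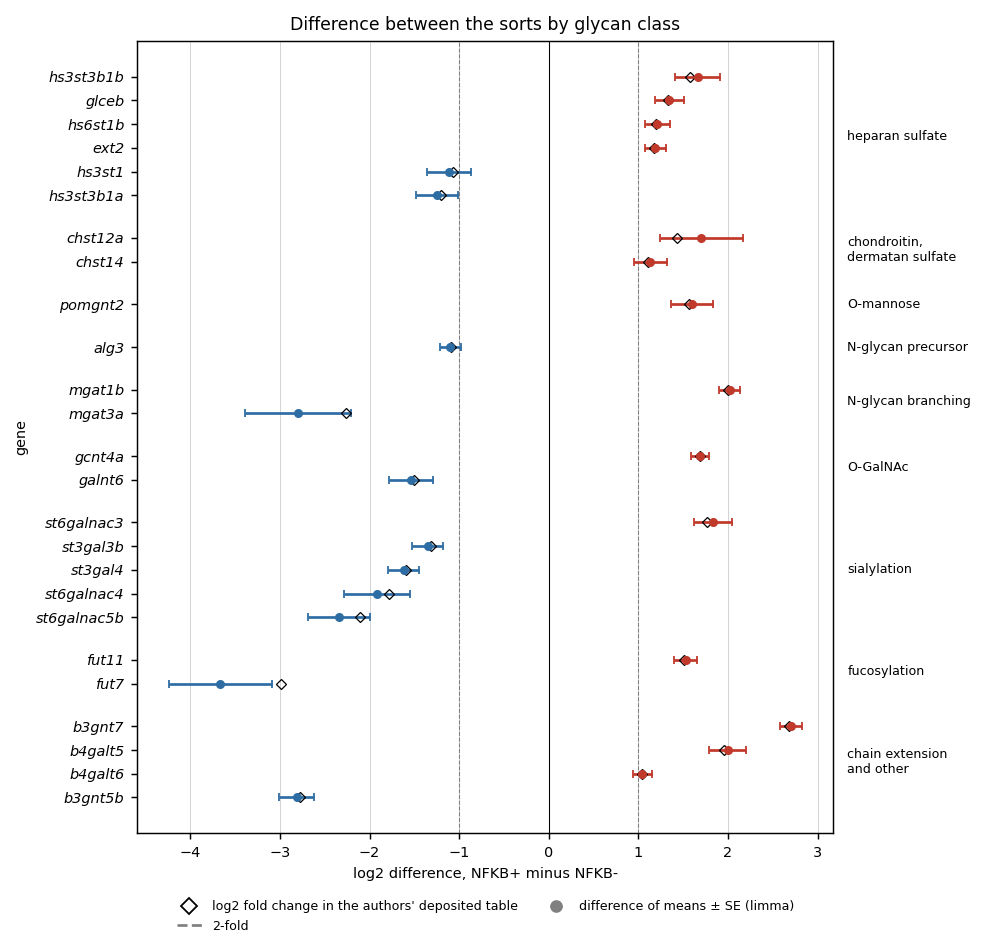
Log2 difference between NFKB+ and NFKB- cells for each gene, by glycan class. Filled circles with bars are the limma difference with its SE (n = 3 per sort), open diamonds the value in the authors' deposited table, and dashed lines mark 2-fold. The circle and the diamond lie close together for most genes. They lie apart for mgat3a, fut7 and chst12a, which had few reads, and for st6galnac5b. For each gene the diamond shows the smaller size of difference.

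The scaling of the libraries moves all genes together. It cancels in the ratio of 2 genes of the same library, apart from the 1 added to the reads. Ratios were taken for 9 pairs of related members, chosen after their values were seen, and their direction follows from that choice. The log2 ratio of b3gnt7 to b3gnt5b was 6.23, 5.87 and 6.24 in NFKB+ and 0.71, 0.62 and 0.47 in NFKB- libraries, a shift of 5.52. The ratio of the duplicates hs3st3b1b and hs3st3b1a was 1.34, 2.00 and 1.28 against -0.80, -1.45 and -1.86, a shift of 2.91. Within each sort the ratio of b3gnt7 to b3gnt5b varied less between libraries than that of the duplicates. The ratio of gcnt4a to galnt6 shifted by 3.23 and that of st6galnac3 to st6galnac4 by 3.75. For mgat1b to mgat3a the shift was 4.81, and 3.97 with a pseudocount of 8, as mgat3a had few reads. Between b4galt5 and b4galt6, which were both higher, the shift was smaller, at 0.95, from -4.00 ± 0.38 (SD, n = 3) in NFKB- to -3.05 ± 0.084 in NFKB+ libraries.

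**Figure D3:**
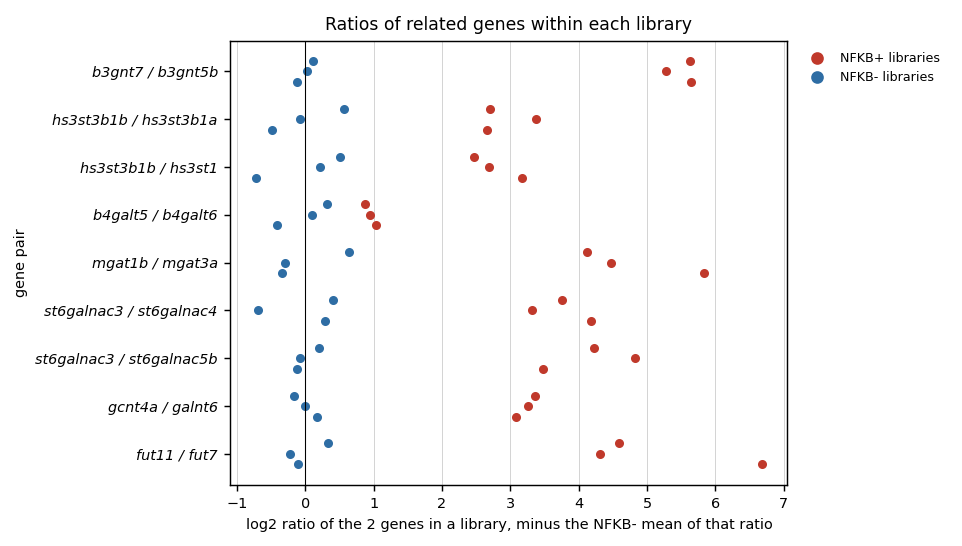
Log2 ratio of 2 related genes in each library, with the NFKB- mean of that ratio subtracted. Red points are NFKB+ and blue points NFKB- libraries. The red points lie to the right of the blue points in each pair, by a mean of 0.95 for b4galt5 to b4galt6 and of 5.52 for b3gnt7 to b3gnt5b.

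The members were also set against markers of the same library, a step chosen after the values were seen. The mean log2 level of the 16 endothelial markers in the table was 1.76 higher in NFKB+ cells, and these markers, like the members, had been selected at 2-fold. Single markers ran from 1.08 for pecam1 to 2.68 for flt4, close to the 2.70 of b3gnt7. Among the 1347 higher genes the endothelial mean falls between st6galnac3 (difference 1.83, rank 334) and chst12a (1.70, rank 436). The share of members above it was thus close to that of all higher genes. Overlap of the sorts against the markers was not counted over all genes. Of the 14 higher members, 4 were still higher against the endothelial mean, namely b3gnt7, mgat1b, b4galt5 and st6galnac3, at 0.94, 0.25, 0.23 and 0.072. The sorts did not overlap in that measure for b3gnt7 alone among these 4, and its value stayed between 0.90 and 0.98 without any 1 library or with a larger pseudocount. Over the same alternatives the count ran from 4 to 6, and 4 genes near 0 changed sign. These were st6galnac3 (-0.094 to 0.20), chst12a (-0.36 to 0.47), gcnt4a (-0.15 to 0.018) and hs3st3b1b (-0.28 to 0.038). The other 10 were lower against the endothelial mean, down to -0.72 for b4galt6, and the sorts did not overlap for 6 of them. These were b4galt6, chst14, ext2, hs6st1b, glceb and fut11. The heparan sulfate genes ext2, hs6st1b and glceb were at -0.57, -0.55 and -0.42 in this measure. That does not set them apart, because most of the 1347 higher genes also differed less than the endothelial mean. Their differences as deposited lay within the range of the single endothelial markers, from 1.08 to 2.68.

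The lower members were set against the myeloid and the erythroid markers in the same way. The mean log2 level of the 12 myeloid markers was lower by -3.16 in NFKB+ cells, and that of the 11 erythroid markers by -2.66. By size of difference, the myeloid mean falls between fut7 and b3gnt5b, which ranked 43 and 132 among the 1124 lower genes. The erythroid mean falls between mgat3a (rank 140) and st6galnac5b (rank 258). Most of all lower genes were thus also higher against either mean, and overlap was not counted over them. Against the myeloid mean, 10 of the 11 lower members were higher in NFKB+ cells, from 0.34 for b3gnt5b to 2.06 for alg3, and fut7 was at -0.51. For fut7, b3gnt5b and mgat3a the libraries of the sorts overlapped in this measure. Against the erythroid mean the same 3 genes were at -1.01, -0.16 and -0.14, with overlapping sorts. The other 8 were higher against it, up to 1.56 for alg3. The sorts did not overlap for 6 of these 8, but they did for st6galnac5b and st6galnac4, at 0.32 and 0.74. Which cells of a sort carried these transcripts was not tested.

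**Figure D4:**
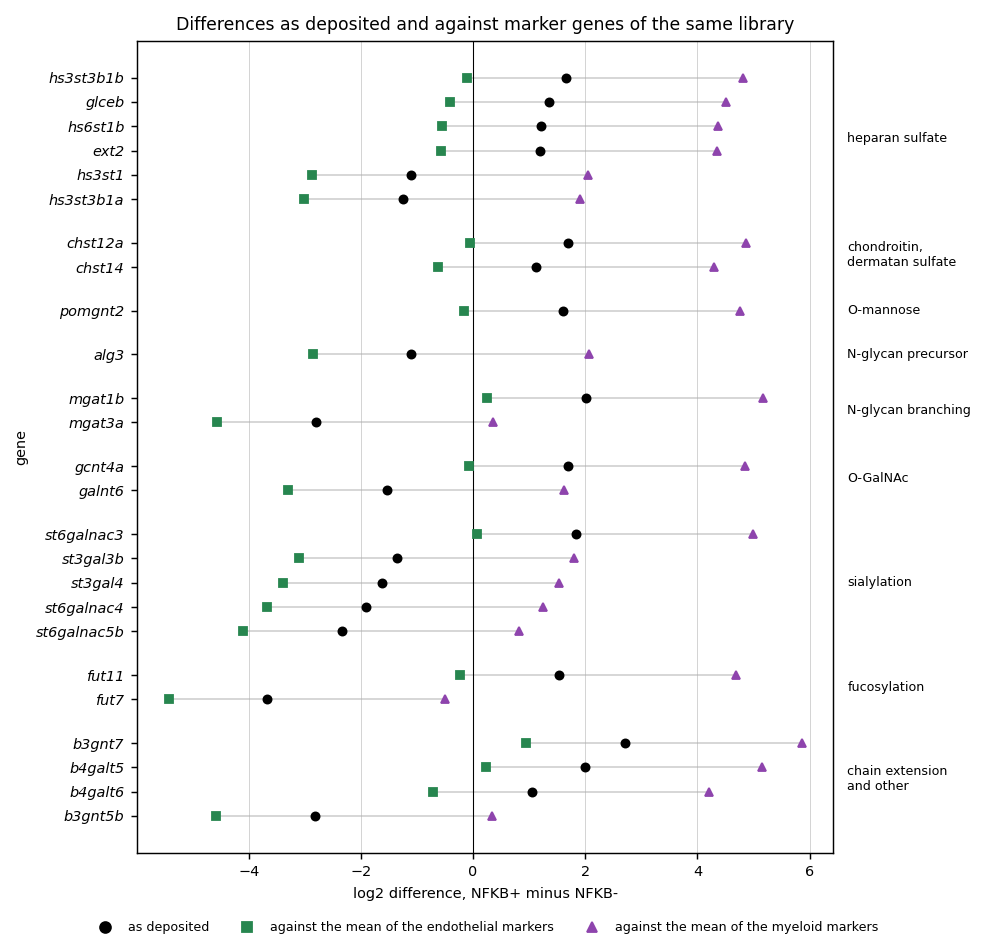
Log2 difference between the sorts for each gene as deposited (black circles), against the mean of 16 endothelial markers of the same library (green squares) and against the mean of 12 myeloid markers (purple triangles). The green square lies right of 0 for b3gnt7, at 0.94, and between -0.72 and 0.25 for the other genes that were higher as deposited. The endothelial markers themselves differed by 1.08 (pecam1) to 2.68 (flt4), and b3gnt7 by 2.70 as deposited. The purple triangles of fut7, b3gnt5b and mgat3a lie closest to 0.

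Other genes of glycan synthesis and of the proteins that carry the glycans were looked up from 6 lists with 176 symbols. The table held 15 of them, of which 11 were higher and 4 lower in NFKB+ cells, with 54.5% higher and 45.5% lower over all genes. Of 31 proteoglycan core proteins 5 were present and 4 were higher. The glypican gene gpc6a was 5.38-fold higher, at 6.74 ± 0.36 (SD, n = 3) against 4.31 ± 0.27. Its level in NFKB- libraries was low, and its difference of 2.43 ± 0.40 (SE) became 2.08 with a pseudocount of 8. The syndecan gene sdc4, for a heparan sulfate proteoglycan of the cell surface, was 3.35-fold higher, at 14.66 ± 0.22 against 12.92 ± 0.043, and sdc2 and the decorin gene dcn were 2.07- and 2.36-fold higher. Serglycin (srgn), the proteoglycan of blood cell granules, was 3.95-fold lower, at 12.03 ± 0.12 against 14.01 ± 0.20.

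Of 35 further genes of glycosaminoglycan synthesis and sulfation 5 were present, 4 higher and 1 lower. The dermatan sulfate epimerase gene dse was 3.90-fold higher, at 11.34 ± 0.095 against 9.37 ± 0.10, and ust, for a 2-O-sulfotransferase of dermatan and chondroitin sulfate, was 3.13-fold higher. Together with chst14 and chst12a, the 4 chondroitin and dermatan sulfate genes found in the table were higher in NFKB+ cells, as were 54.5% of all genes. Median-ratio scaling, taken over the selected genes alone, ended the calls of chst14 and chst12a but not those of dse and ust. The UDP-glucuronate synthesis gene ugdh and the heparan sulfate 6-O-endosulfatase gene sulf2b were 2.03- and 2.02-fold higher. The gene papss2b, for an enzyme that makes the sulfate donor, was 2.08-fold lower. In N-glycan trimming, 2 of 29 listed genes were present. The Golgi mannosidase gene man2a1, which acts after mgat1b, was 2.46-fold higher, and prkcsh, for the beta subunit of glucosidase II, was 2.02-fold higher. None of 43 listed genes for sugar nucleotide synthesis and transport, a list that did not include ugdh, had a row. With median-ratio scaling the calls of sdc2, dcn, ugdh, sulf2b, man2a1 and prkcsh ended (limma adjusted p from 0.0502 for dcn to 0.409 for sulf2b).

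Of 12 listed genes for mucin-like proteins, selectin-ligand carriers and adhesion molecules 2 were present. The gene selplg, which encodes the selectin ligand carrier of leukocytes, was 6.50-fold lower in NFKB+ cells. Its levels were 6.91, 7.42 and 7.62 in NFKB+ and 9.94, 9.96 and 10.15 in NFKB- libraries. It lay on the same side as fut7 and st3gal4, as did the myeloid and erythroid markers with medians of -3.28 and -2.76. So did 45.5% of all genes. The core 2 gene gcnt4a lay on the other side, 3.23-fold higher, and a link among these genes was not tested. The adhesion molecule gene mcamb of endothelium was 2.77-fold higher, at 12.96 ± 0.10 against 11.49 ± 0.11. Of 26 other transferases and sialidases only neu4, a sialidase gene, was present. It had levels of 2.63, 0 and 3.65 in NFKB+ and 6.34, 5.96 and 6.85 in NFKB- libraries, so NFKB+ library 2 held no read of it. Its difference of -4.29 ± 0.78 (SE) was -3.24 without that library and -5.07 without NFKB+ library 3.

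Within a sort the libraries did not rank alike for all members. Among the 14 higher members, NFKB- library 6 was the lowest of its sort for 9 and library 4 the highest for 8, with 53.5% and 65.6% over all higher genes. Among the 11 lower members, library 4 was the lowest of its sort for 7, with 61.9% over all lower genes. In the NFKB+ sort, library 3 was the lowest for 5 of the 11, among them fut7, mgat3a and st6galnac4, with 29.9% over all lower genes. Library 4 thus had the highest levels of many members that were lower in NFKB- cells and the lowest of many that were higher there, as it did in the table at large. Its globin share, 35.9%, was the lowest of the NFKB- libraries.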

How the data were processed

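Per the labels' protocols, total RNA from sorted cells was made into low-input libraries. The labels call the samples biological replicates. Whether they came from separate embryo pools is not stated, so p-values may measure only technical spread. Per the submitters' processing notes, the tools were cutadapt, STAR, HTSeq and DESeq2, with build danRer10. Their versions, the annotation, strand and the treatment of shared reads are not given in the sources used here.

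The authors deposited, per the file headers, log2 values per library, average log2 expression, a signed fold change (a score), log2 fold change, p-value and adjusted p-value. The authors' log2 values are log2 of reads over a size factor, plus 1, since undoing the logarithm left whole multiples of a step in each library (100% of values under 1000 reads, within 0.1 read). Reads in the table ran from 8393815 to 15165090 per library, which are sums over selected genes and not depths. Of 2475 rows, 4 with a repeated name were left out.

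Differences were fitted in R 4.3.3 with limma 3.58.1 (mean trend, pseudocount 1, no filter or covariate) and adjusted by Benjamini-Hochberg over 2471 genes at 0.05. The fit was tested on simulated data in which most genes were unchanged, unlike the selected genes here. Column numbers serve as library names. All members are named, with values in every library at a difference of 1.5 or more and for the leading member of each class and direction. Annotated symbols came from RefSeq (GRCz12tu), where all 25 members matched by gene ID. Members and lists were chosen with earlier results of these data known.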

Additional observations from a re-analysis of the deposited data

How the results depend on the processing

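Alternatives were 3 other scalings, a pseudocount of 8, a minimum mean of 50 normalized reads, no mean trend, library weights, limma-voom on recovered reads and leaving out 1 library at a time. Of 349 values for the 25 members 346 kept their call, none changed direction, and 3 lost it under median ratios, where 11 members were called higher and 11 lower, and 920 and 1124 of all genes against 1347 and 1124 as deposited. These were b4galt6, chst12a and chst14, with limma adjusted p of 0.201, 0.128 and 0.192, against at most 1.05e-04, 0.0161 and 2.36e-04 under the other alternatives. Of 209 values for the 15 other genes 6 lost their call, all under median ratios (dcn, sdc2, ugdh, sulf2b, prkcsh and man2a1). The scalings shifted the median difference of all genes by 0.49 (same total), -0.88 (median ratios) and -0.11 (same total without globins). The median ratios were taken over the selected genes, with no unchanged genes among them to set the scale. The calls that ended under them therefore cannot decide between the scalings. With them the heparan sulfate median of 1.199 became 1.69 (same total) and 0.32 (median ratios), and the sialyltransferase median of -1.62 became -1.13 and -2.50. The selection at 2-fold largely fixes the other directions and calls, so they say nothing of stability. Without 1 library at a time 14 members were higher and 11 lower, and mgat3a has no value under the minimum mean. Limma-voom called 1347 higher and 1124 lower genes. No paired analysis was possible because columns are numbered through both sorts, without the replicate numbers of the samples. Genes with few reads (fut7, mgat3a, chst12a and neu4) are the least precise.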

Other observations

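The deposited descriptions named 8 further genes of hyaluronan, sulfotransferase or glycosyltransferase function outside the name rule and the lists, a search made after the data were seen. Of these 5 were higher and 3 lower in NFKB+ cells, with 54.5% higher and 45.5% lower over all genes. The lower ones were the hyaluronidase genes hyal6 and hyal3 and the cytosolic sulfotransferase gene sult5a1. For hyal3 (Gene 100004557) the levels were 6.53, 6.37 and 4.77 in NFKB+ and 8.50, 8.62 and 8.30 in NFKB- libraries, which is 6.01-fold lower. For hyal6 (Gene 791189) they were 3.22, 1.14 and 0 in NFKB+ and 6.03, 6.01 and 5.68 in NFKB- libraries, and for sult5a1 (Gene 767718) 2.63, 0 and 3.49 against 6.84, 6.73 and 7.73, so each had an NFKB+ library without a read. On the other side, the hyaluronan receptor genes lyve1b and lyve1a were 6.96- and 2.63-fold higher. The cytosolic sulfotransferase gene sult2st3 was 5.45-fold higher, and glt8d2 and glt8d1, named for a glycosyltransferase domain, were 4.41- and 2.25-fold higher. The hyaluronan synthase genes has1, has2 and has3 had no row.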
